A study of Mus musculus with 4 samples.

Results

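The genes described here are the ligands and receptors that steer growing axons: the ephrins and their Eph receptors, the Slits and Robos, the semaphorins with their neuropilin and plexin receptors, and the netrins with Dcc and the Unc5 receptors. They were taken by name and by protein-coding biotype from the deposited gene tables, which gave 68 genes among 23475 in all. Ntn3 also matches the naming rule in the mouse annotation and was not analysed here. The members divide into 34 ligands and 34 receptors, and by role into 8 ephrins, 14 Eph receptors, 3 Slits, 4 Robos, 7 secreted class 3 semaphorins, 13 membrane-bound semaphorins of the other classes, 2 neuropilins, 9 plexins, 3 netrins and 5 netrin receptors.

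Astrocytes were isolated from mouse cerebral cortex on postnatal day 5 and their mRNA was sequenced. The group labelled KO was given by the series design as PD1cKO-Cx3 mice, and the group labelled WT as PD1fl/fl mice, with 2 libraries each. PD1 (gene Pdcd1) is an inhibitory receptor of immune cells. The design names the driver of the deletion only by the suffix Cx3, and it does not say which cells delete the gene, whether animals were pooled, or whether the WT mice were littermates. Nothing says that the 2 libraries of a group came from separate animals or cultures, so a p-value here reflects library-to-library spread only, which may be technical.

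Axon guidance cues act at a distance when secreted and by contact when held on a membrane, and they attract or repel a growth cone according to the receptor that reads them. Ephrins are held on the cell surface and signal through Eph receptor tyrosine kinases, with signalling in both directions. Slits repel through Robo receptors, class 3 semaphorins bind neuropilins that pass the signal to plexins, most other semaphorins bind plexins directly, and netrins attract through Dcc or repel through Unc5 receptors. The same molecules also pattern blood vessels, place oligodendrocyte precursors and mediate contacts between astrocytes and neurons.

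Depth and composition bear on every value below. The libraries held between 14224519 and 16961160 counts over the listed genes. Pdcd1 had 20 counts in the library labelled KO replicate 2 and 0 in each WT library, and it was not listed in KO replicate 1, so its counts cannot check the labels. Xist had 0 counts in KO replicate 2 and 6732 to 8564 in the other 3 libraries. Ddx3y, on the Y chromosome, had 2472 in KO replicate 2, was not listed in KO replicate 1 and had 0 in WT. KO replicate 2 was thus male and the other 3 libraries female, so sex was not balanced between the groups. Its part in the values below was not tested. The 11 astrocyte markers, among them the glutamate transporter Slc1a3 and the lipoprotein Apoe, summed to 11232 and 9658 CPM (counts scaled to the size of the library) in the libraries labelled KO and to 10785 and 10621 CPM in the WT libraries, so astrocyte transcripts were abundant as labelled. Markers of other cells were present too. The 12 microglia and macrophage markers summed to 4561 and 3817 CPM in KO and to 851 and 1230 CPM in WT, with all 12 higher in both KO libraries and P2ry12 past the threshold (adjusted p = 0.0288, edgeR). The 12 endothelial markers summed to 821 and 431 CPM in KO and to 280 and 110 CPM in WT, again with all 12 higher in both KO libraries. By edgeR 0 of these endothelial markers passed the threshold. Over all genes 21.2% were higher in both KO libraries, and 0.017% passed the threshold by edgeR. The 12 neuron markers summed to 2461 and 2567 CPM in KO and to 2766 and 3145 CPM in WT. None of these 4 lists held a marker at 0 in any library. In such bulk samples, fewer cells of a type and less RNA per cell cannot be told apart.

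No guidance gene passed the threshold over all genes. Of the 68 members 67 were tested, and 0 had an adjusted p under 0.05 (edgeR quasi-likelihood test, Benjamini-Hochberg over 17696 genes), against 3 of all genes tested, or 0.017%. Limma-voom also called 0 members. DESeq2 called 2 members, Plxnb3 and Nrp1, both higher in KO, or 2.99% of the members, against 2.14% of all genes. At an unadjusted p under 0.05 edgeR had 5 members higher in KO, or 7.46%, against 5.88% of all genes, and 4 lower, or 5.97%, against 2.41% of all genes. The higher ones were Plxnb3, Nrp1, Plxnd1, Unc5b and Sema5a, and the lower ones were Unc5d, Ephb4, Epha6 and Robo1. Such unadjusted counts are not counts of changed genes. On GRCm38, Plxnb3 (ENSMUSG00000031385) spans chrX:73757090-73772514 on the plus strand, Nrp1 (ENSMUSG00000025810) chr8:128358604-128503363 on the plus strand, Plxnd1 (ENSMUSG00000030123) chr6:115954811-115995005 on the minus strand, Unc5b (ENSMUSG00000020099) chr10:60762593-60831581 on the minus strand and Unc5d (ENSMUSG00000063626) chr8:28646717-29219636 on the minus strand.

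The members were spread about evenly around 0. Of the 67 tested members 33 had a log2 fold change (KO over WT) above 0 and 34 below 0. The median was -0.02, beside -0.00 over all genes, and the members ran from -2.15 to 2.00. In 48 members the fold between the groups was under 1.5 in either direction. Both KO libraries lay above both WT libraries for 12 members, or 17.9%, against 21.2% of all genes, and below both for 15, or 22.4%, against 18.4%. Ligands and receptors each had a median of -0.02. By role the medians ran from -0.61 in the netrins to 0.48 in the neuropilins, each a group of few genes. Leaving out WT replicate 1 put the netrin median at 0.08, and leaving out WT replicate 2 put it at -1.01.

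**Figure D1:**
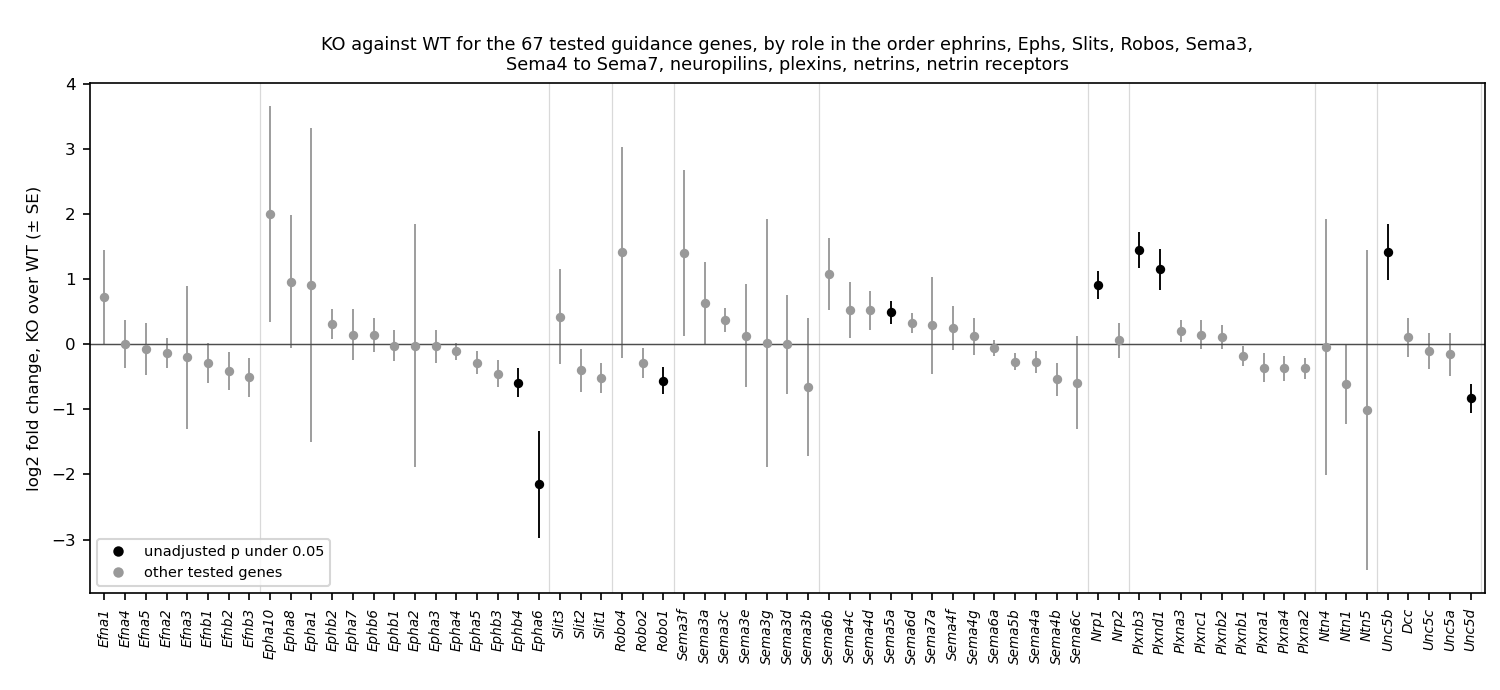
Log2 fold change of KO over WT for the 67 tested guidance genes, with bars for its standard error, ordered within each role from highest to lowest. The 9 black points have an unadjusted p under 0.05, and 0 of the 67 pass after adjustment over all genes. Wide bars mark genes of few counts, such as Epha2 and Ntn5, or of uneven libraries, such as Robo4.

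The promoters of Plxnb3, Unc5b and Plxnd1 are shown because, of the 5 members higher in KO at an unadjusted p under 0.05, these had the largest fold changes. They are RefSeq sequences on GRCm38.p6, the 250 bases before the transcription start, 5′ to 3′ on the gene's strand. Plxnb3 lies on the plus strand at chrX:73756853-73757102, Plxnd1 on the minus strand at chr6:115995006-115995255, and Unc5b on the minus strand at chr10:60831582-60831831. The last few bases of the Plxnb3 window lie inside the gene as the authors' table places it. Capitals mark matches, on either strand, to 4 short motifs: the GC box GGGCGG, the ETS core CCGGAA, the SOX core ACAAAG and the TATA box TATAAA.
Plxnb3: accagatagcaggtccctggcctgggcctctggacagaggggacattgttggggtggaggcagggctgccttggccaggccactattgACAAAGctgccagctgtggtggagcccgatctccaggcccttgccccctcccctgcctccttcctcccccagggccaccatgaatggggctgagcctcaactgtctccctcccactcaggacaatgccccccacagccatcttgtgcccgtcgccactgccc
Plxnd1: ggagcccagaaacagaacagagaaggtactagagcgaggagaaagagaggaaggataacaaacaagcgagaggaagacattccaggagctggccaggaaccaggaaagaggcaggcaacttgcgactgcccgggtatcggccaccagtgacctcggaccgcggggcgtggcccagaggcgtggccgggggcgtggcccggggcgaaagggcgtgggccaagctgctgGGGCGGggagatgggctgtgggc
Unc5b: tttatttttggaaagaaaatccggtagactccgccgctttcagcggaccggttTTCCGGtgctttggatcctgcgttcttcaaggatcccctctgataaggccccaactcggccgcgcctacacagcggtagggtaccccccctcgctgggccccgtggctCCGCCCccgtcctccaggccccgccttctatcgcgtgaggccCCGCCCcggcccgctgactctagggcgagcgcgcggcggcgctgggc

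The promoters differed in what they held. The Plxnb3 window had 1 SOX core, no other of the 4 motifs, and 3 CpG dinucleotides. The Plxnd1 window had 1 GC box and 16 CpG, and the Unc5b window had 2 GC boxes, 1 ETS core and 27 CpG. Over the 21263 RefSeq promoters of protein-coding genes, 42.6% held a GC box, 15% an ETS core, 14.9% a SOX core and 11.6% a TATA box. RefSeq promoters matched 58 of the 68 members by symbol, with 74 windows in all, of which 70.3% held a GC box, 9.46% an ETS core, 9.46% a SOX core and 2.7% a TATA box. A match of 6 letters is a description of the window and not a binding site.

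Levels are compared between genes only after division by exon length. Sema6a, a transmembrane semaphorin that also acts as a receptor, had the highest mean at 48.4 CPM per kb of exons, followed by Sema5b at 31.0 and the ephrin receptor Epha4 at 30.8. Plxnb2, a receptor of class 4 semaphorins, had 23.5 CPM per kb and Sema6d had 20.6. At the low end were Robo3 at 0.114, Ntn4 at 0.126 and Epha1 at 0.143 CPM per kb. In 8 members at least 1 library was at 0: Epha1, Epha2, Epha10, Ntn4, Ntn5, Robo3, Robo4 and Sema3g. The limit that a count of 0 allows (3 counts) was 0.187 and 0.184 CPM in the KO libraries and 0.178 and 0.209 CPM in the WT libraries, for counting error only. Robo3 alone did not pass the low-count filter, with 6 and 35 counts in KO and 10 and 0 in WT.

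**Figure D2:**
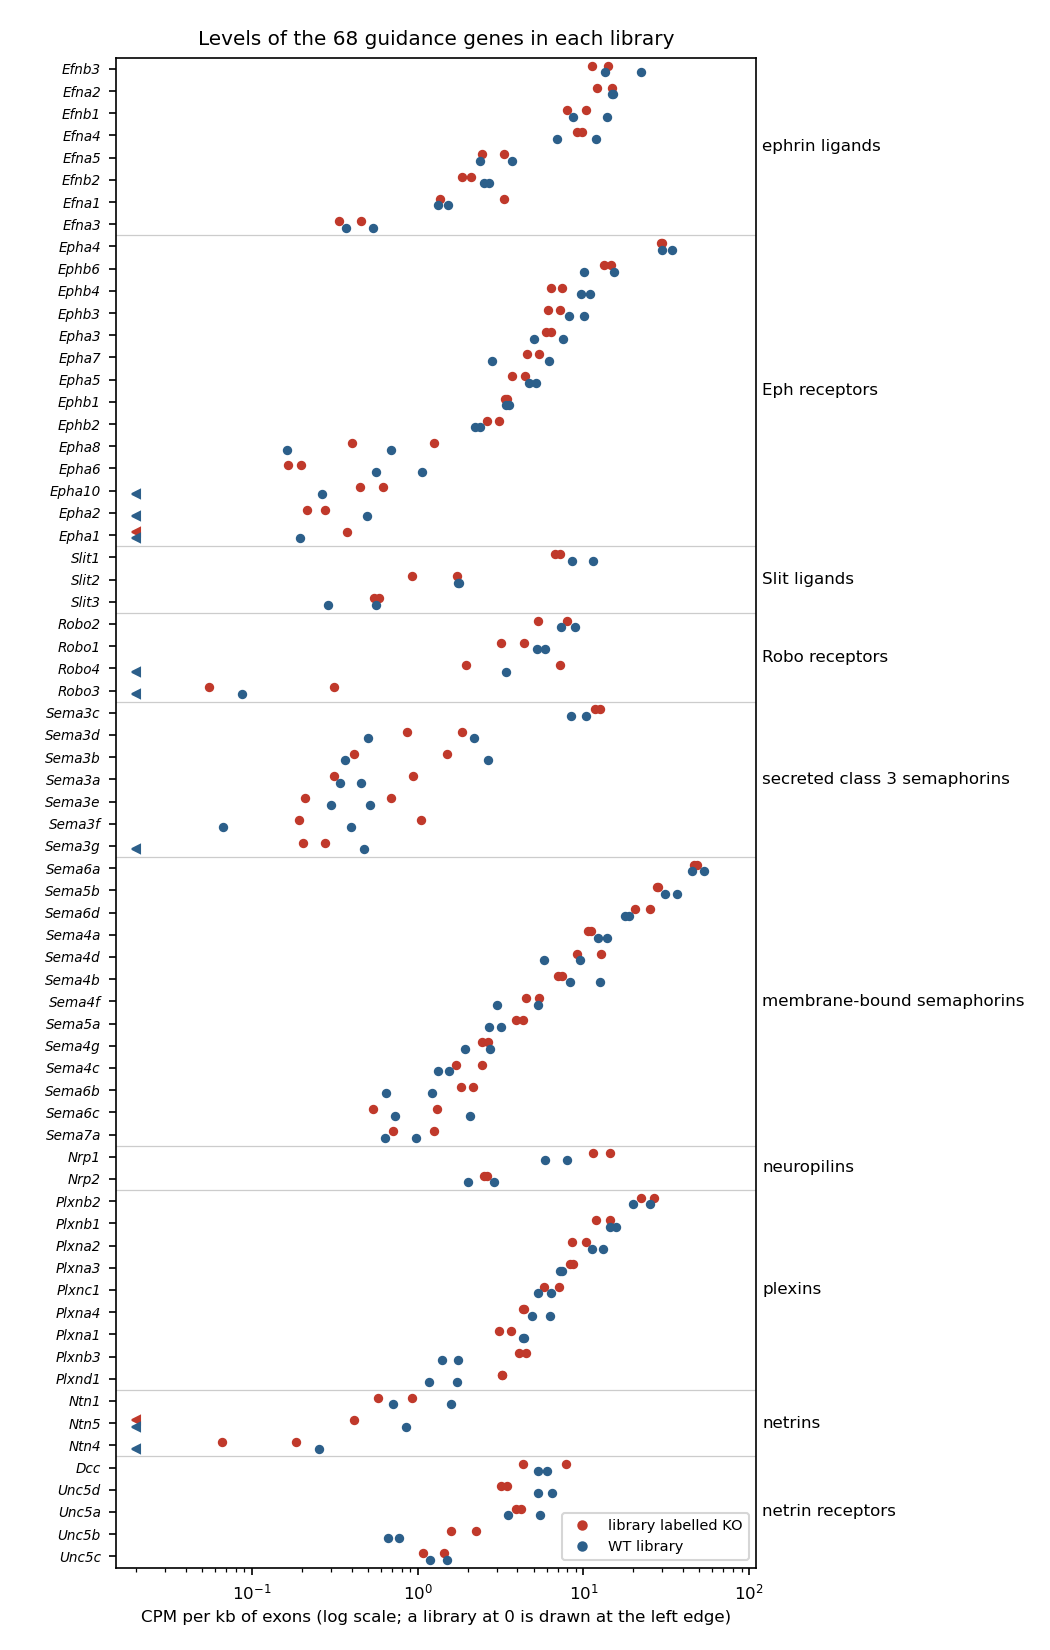
Level of each of the 68 members in each library, in CPM per kb of exons on a log axis, with the KO libraries drawn above the WT libraries and a library at 0 drawn as a triangle at the left edge. Members run from Sema6a at a mean of 48.4 down to Robo3 at 0.114, and for 48 of the 67 tested members the groups differ by less than 1.5-fold.

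Among the ephrins no member reached an unadjusted p under 0.05, and 6 of 8 had a log2 fold change below 0, with a median of -0.17. Efnb3, a transmembrane ephrin that blocks regrowth and midline crossing of axons, had 44.6 and 35.7 CPM in KO and 70.8 and 43.1 CPM in WT, at -0.51 ± 0.30 on the log2 scale (SE, here and below; edgeR adjusted p = 0.755). WT replicate 1 was the high library and the groups overlapped. Efna2, held to the membrane by a lipid anchor, had 25.9 and 31.6 CPM in KO and 32.0 and 31.5 CPM in WT, with a log2 fold change of -0.14 ± 0.23. Efnb2, the arterial ephrin whose partner in veins is Ephb4, had 12.6 and 14.3 CPM in KO and 18.4 and 17.3 CPM in WT, so that both KO libraries lay below both WT libraries (log2 fold change -0.41 ± 0.29, adjusted p = 0.818). It was the only ephrin whose groups did not overlap. The remaining ephrins, Efna1, Efna3, Efna4, Efna5 and Efnb1, had log2 fold changes between -0.29 and 0.72, and the 0.72 of Efna1 came with 6.06 CPM in KO replicate 1 and 2.43 to 2.78 CPM in the other 3 libraries.

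The Eph receptors divided evenly around 0, with 6 members above and 8 below and a median of -0.02. Epha4, the most abundant per length and a receptor for ephrins of both classes on neurons and astrocytes, had 237 and 240 CPM in KO and 275 and 240 CPM in WT. Its log2 fold change was -0.11 ± 0.13 (SE, adjusted p = 0.92), and the groups overlapped. Ephb6, a receptor with an inactive kinase domain, had 55.4 and 50.5 CPM in KO and 57.8 and 38.0 CPM in WT, a log2 fold change of 0.14 ± 0.26. Ephb4, the venous receptor for Efnb2, had 34.4 and 29.6 CPM in KO and 44.9 and 51.1 CPM in WT. Both KO libraries lay below both WT libraries, at a log2 fold change of -0.59 ± 0.22 (SE; unadjusted p = 0.0374, adjusted p = 0.547, edgeR). Epha6, which guides cortical and retinal axons, had 14 and 17 counts in KO and 50 and 81 counts in WT, or 0.875 and 1.04 CPM against 2.96 and 5.63 CPM. The log2 fold change was -2.15 ± 0.82 (adjusted p = 0.558), the lowest of all members, and rests on few counts.

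Other Eph receptors hung on single libraries. Epha10, another receptor with an inactive kinase domain, had 4.44 and 3.25 CPM in KO and 1.90 and 0 CPM in WT (log2 fold change 2.00 ± 1.66, adjusted p = 0.855). Leaving out WT replicate 2, the library at 0, gave 1.02. Epha2, a receptor of epithelial cells, had 1.00 and 1.29 CPM in KO and 2.31 and 0 CPM in WT, and its fold change had no stable sign. Epha7, a receptor that restrains growth of cortical axons and dendrites, had 53.4 and 44.9 CPM in KO, between the 27.8 and 60.9 CPM of the WT libraries. Epha3, Epha5, Ephb1, Ephb2 and Ephb3 had log2 fold changes from -0.45 to 0.31, and Epha8 and Epha1, both of few counts, had 0.96 and 0.91. Epha5 and Ephb3 were lower and Ephb2 higher in both KO libraries, each at an unadjusted p over 0.05.

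Slit1, Slit2, Robo1 and Robo2 had log2 fold changes below 0, while Slit3 and Robo4 lay above 0. Of these genes Robo1 alone had an unadjusted p under 0.05 (edgeR). Slit1, a neuronal Slit, had 39.8 and 42.6 CPM in KO and 68.0 and 50.4 CPM in WT, at -0.52 ± 0.23 on the log2 scale (edgeR adjusted p = 0.633), with no overlap between groups. Slit2 had 23.6 and 44.1 CPM in KO and 44.9 and 44.5 CPM in WT, so that KO replicate 1 stood low and KO replicate 2 lay close to the WT libraries (log2 fold change -0.40 ± 0.33, and -0.02 without KO replicate 1). Slit3 had 3.56 and 3.31 CPM in KO and 3.38 and 1.74 CPM in WT (log2 fold change 0.42 ± 0.73). Robo1, a Slit receptor on many axons, had 72.6 and 52.4 CPM in KO and 97.1 and 86.5 CPM in WT. Both KO libraries lay below both WT libraries, with a log2 fold change of -0.56 ± 0.21 (unadjusted p = 0.0424, adjusted p = 0.566, edgeR). Robo2 had 90.4 and 135 CPM in KO and 151 and 125 CPM in WT, where KO replicate 1 stood low and the groups overlapped (log2 fold change -0.29 ± 0.23, and -0.03 without KO replicate 1).

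Robo4, the Robo of endothelial cells, varied more between libraries than between groups. It had 612 and 168 counts in KO and 306 and 0 counts in WT, or 38.2 and 10.3 CPM against 18.1 and 0 CPM. KO replicate 1 was the highest library and WT replicate 2 the lowest, as they were for the summed endothelial markers, at 821 CPM in KO replicate 1 and 110 CPM in WT replicate 2. The log2 fold change was 1.41 ± 1.62 (SE, adjusted p = 0.919), and it was 0.42 without WT replicate 2 and 0.18 without KO replicate 1. Robo4 and Robo3 lie tail to tail on chromosome 9, 553 bases apart, and Robo3 had its 35 counts in KO replicate 2, where Robo4 was not the highest.

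Among the secreted class 3 semaphorins 6 of 7 lay above 0 on the log2 scale, with a median of 0.13, and 0 had an unadjusted p under 0.05. Of the 6, Sema3d lay at 0.00 and Sema3g at 0.02, and the median was -0.22 without KO replicate 1 and 0.86 without WT replicate 1. Sema3c, which attracts cortical axons and is the most abundant of them per length, had 83.4 and 90.2 CPM in KO and 74.3 and 59.8 CPM in WT (log2 fold change 0.37 ± 0.18, adjusted p = 0.688). It was the only member of the class whose groups did not overlap. Sema3d had 15.9 and 7.36 CPM in KO and 18.9 and 4.31 CPM in WT, and Sema3b had 7.19 and 1.96 CPM in KO and 12.7 and 1.74 CPM in WT. In both genes the replicate 1 libraries of each group stood above the replicate 2 libraries, so the spread within a group exceeded the difference between groups. Sema3f, a repellent read through Nrp2, had 16 and 89 counts in KO and 35 and 5 counts in WT, a log2 fold change of 1.40 ± 1.27 that was -0.28 without KO replicate 2. Sema3g, a semaphorin of arteries, had 1.25 and 0.920 CPM in KO and 0 and 2.16 CPM in WT. Sema3a, the prototype repellent of cortical axons, had 12.9 CPM in KO replicate 1 and 4.35 to 6.28 CPM in the other 3 libraries, and Sema3e had 31 and 104 counts in KO and 81 and 40 counts in WT.

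The membrane-bound semaphorins held the most abundant members. Sema6a had 408 and 423 CPM in KO and 472 and 398 CPM in WT, at -0.06 ± 0.12 on the log2 scale (SE, adjusted p = 0.961), and the KO libraries lay within the range of the WT libraries. Sema5b had 199 and 198 CPM in KO and 260 and 221 CPM in WT, lower in both KO libraries (log2 fold change -0.27 ± 0.13, adjusted p = 0.684). Sema6d, a ligand of class A plexins, had 268 and 216 CPM in KO and 188 and 198 CPM in WT, higher in both KO libraries (log2 fold change 0.33 ± 0.15, adjusted p = 0.66). Sema5a, a bifunctional guidance cue and a ligand of plexin-B3, had 72.8 and 81.1 CPM in KO and 59.1 and 50.6 CPM in WT, with no overlap. Its log2 fold change was 0.49 ± 0.18 (unadjusted p = 0.0396, adjusted p = 0.557, edgeR). Sema5a and Sema5b thus lay on opposite sides of 0, and the difference between them was not tested.

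Of the 6 class 4 semaphorins, Sema4a and Sema4b were lower and Sema4c was higher in both KO libraries. Over all genes 18.4% were lower and 21.2% higher in both. The unadjusted p of Sema4a, Sema4b and Sema4c was 0.178, 0.0841 and 0.264 (edgeR). Sema4b had 41.8 and 39.4 CPM in KO and 46.8 and 71.3 CPM in WT, where WT replicate 2 stood high (log2 fold change -0.54 ± 0.26). Sema4d, a plexin-B1 ligand made by oligodendrocytes and immune cells, had 70.6 and 98.4 CPM in KO and 73.0 and 44.7 CPM in WT, and the groups overlapped (log2 fold change 0.52 ± 0.30). Sema6b had 115 and 139 counts in KO and 43 and 70 counts in WT, or 7.19 and 8.52 CPM against 2.55 and 4.87 CPM, at a log2 fold change of 1.08 ± 0.55 (adjusted p = 0.70). The others, Sema4f, Sema4g, Sema6c and Sema7a, had log2 fold changes from -0.59 to 0.29 and overlapping groups.

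Nrp1, the co-receptor of class 3 semaphorins that also binds the vessel growth factor VEGF, had the second-lowest p of all members. It had 2272 and 1814 counts in KO and 963 and 1123 counts in WT, or 142 and 111 CPM against 57.1 and 78.1 CPM. Both KO libraries lay above both WT libraries, at a fold of 1.87 (log2 fold change 0.91 ± 0.22 SE; unadjusted p = 0.00721, adjusted p = 0.369 by edgeR, 0.018 by DESeq2 and 0.239 by limma-voom). Nrp2 had 29.6 and 31.1 CPM in KO and 34.4 and 23.8 CPM in WT, within the WT range (log2 fold change 0.06 ± 0.27). Nrp1 is made by endothelial cells and by microglia as well as neurons, and the marker sums of both cell types were higher in KO. Their part in its value was not tested.

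Among the plexins, Plxnb3 and Plxnd1 stood above the rest. Plxnb3, a receptor for Sema5a made by the oligodendrocyte lineage, lies on chromosome X. It had 426 and 478 counts in KO and 192 and 131 counts in WT, or 26.6 and 29.3 CPM against 11.4 and 9.11 CPM. That is a fold of 2.73 (log2 fold change 1.45 ± 0.28 SE), with an unadjusted p of 0.00252, the lowest among the members, and an adjusted p of 0.259 by edgeR, 0.0215 by DESeq2 and 0.193 by limma-voom. In the authors' deposited tables its log2 fold change was 1.22 and 1.52 for KO replicate 1 over WT replicates 1 and 2, and 1.36 and 1.66 for KO replicate 2 over the same WT libraries, which the pairs share. Unc5b, at 1.03 to 1.75, and Epha6, at -2.71 to -1.51, also kept their sign over these pairs. The pairs hold the same counts as above, so they add no evidence. Besides Plxnb3, the X-linked members Plxna3 and Efnb1 had log2 fold changes of 0.21 and -0.29. The part of the difference in Xist between libraries was not tested. Plxnd1, a receptor for Sema3e that restrains vessel sprouting, had 23.7 and 23.4 CPM in KO and 12.6 and 8.55 CPM in WT, a log2 fold change of 1.15 ± 0.32 (unadjusted p = 0.0124, adjusted p = 0.447, edgeR).

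The class A plexins, which carry the signal of class 3 and class 6 semaphorins, were separated between groups in all 4 members, with 1 above and 3 below, where 21.2% of all genes lay above and 18.4% below, and none had an unadjusted p under 0.05. Plxna2 had 147 and 178 CPM in KO and 194 and 225 CPM in WT, Plxna4 had 61.1 and 61.4 CPM in KO and 69.0 and 89.2 CPM in WT, and Plxna1 had 33.1 and 28.0 CPM in KO and 39.1 and 39.4 CPM in WT. Their log2 fold changes were close to each other, at -0.37, -0.37 and -0.36. Plxna3 went the other way, with 67.9 and 65.7 CPM in KO and 56.8 and 58.6 CPM in WT. Plxnb2 had 206 and 171 CPM in KO and 194 and 154 CPM in WT, and Plxnb1, the Sema4d receptor, had 139 and 115 CPM in KO and 150 and 138 CPM in WT. These abundant class B plexins overlapped between groups (log2 fold changes 0.11 ± 0.18 and -0.18 ± 0.16), as did Plxnc1, the receptor of Sema7a, at 0.15 ± 0.22.

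Per kb of exons the netrins had 0.126 to 0.945 CPM and their receptors 1.31 to 5.91 CPM. Ntn1 had 58 and 94 counts in KO and 167 and 64 counts in WT, or 3.62 and 5.76 CPM against 9.90 and 4.45 CPM, so that its log2 fold change of -0.61 ± 0.61 rested on WT replicate 1 and was 0.08 without it. Ntn5 had 0 and 15 counts in KO and 0 and 27 counts in WT, and 23.4% of its exon length overlaps Sec1 on the other strand, so its reads are uncertain unless counting used strand. Ntn4 had 4 to 16 counts in 3 libraries and 0 in WT replicate 2. Dcc, the attractive netrin receptor, had 56.9 and 104 CPM in KO and 79.5 and 70.4 CPM in WT, where the KO libraries lay on either side of the WT libraries (log2 fold change 0.11 ± 0.30, and -0.40 without KO replicate 2).

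The Unc5 receptors, which turn netrin attraction into repulsion, pointed in different directions. Unc5b, the member of vessel tips, had 160 and 228 counts in KO and 70 and 69 counts in WT. The fold was 2.68 (log2 fold change 1.42 ± 0.43 SE, unadjusted p = 0.0168, adjusted p = 0.455, edgeR). Unc5d, a marker of migrating upper-layer cortical neurons that also binds the Flrt proteins, had 29.5 and 31.8 CPM in KO and 59.5 and 49.2 CPM in WT. Its log2 fold change was -0.83 ± 0.22 (unadjusted p = 0.00919, adjusted p = 0.396, edgeR). Both genes separated the groups completely, on opposite sides. Unc5a and Unc5c had log2 fold changes of -0.15 ± 0.33 and -0.10 ± 0.28 and overlapping groups.

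**Figure D3:**
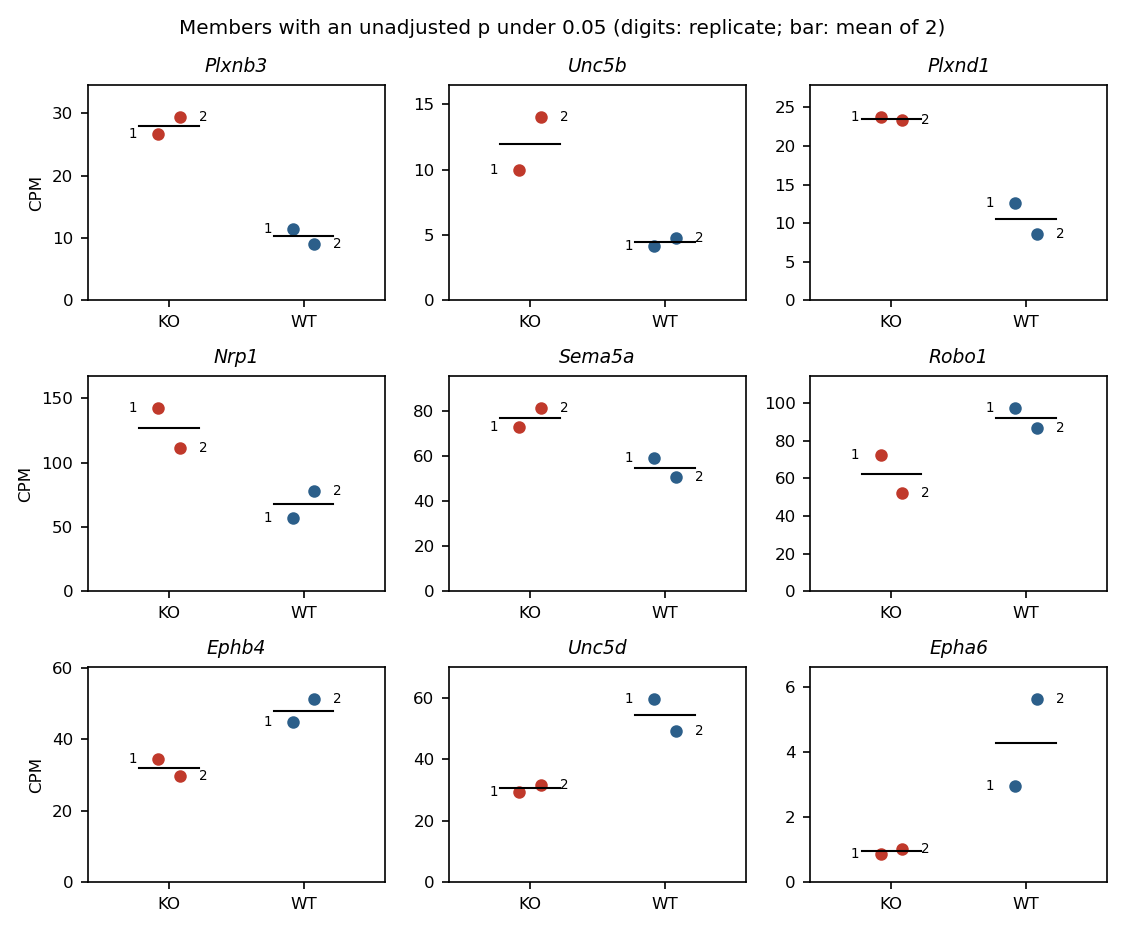
CPM in each library for the 9 members with an unadjusted p under 0.05, KO left of WT, with a bar at the mean of the 2 libraries and digits for the replicate. In all 9 the KO libraries lie wholly above or wholly below the WT libraries, from 26.6 and 29.3 against 11.4 and 9.11 CPM in Plxnb3 to 0.875 and 1.04 against 2.96 and 5.63 CPM in Epha6. Choosing members by a small p favours such separation, so it adds no evidence. Over all genes 21.2% lay wholly above and 18.4% wholly below.

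Leaving out each library in turn, Plxnb3 ranged from 1.30 to 1.62 on the log2 scale and Nrp1 from 0.70 to 1.15. Unc5b ranged from 1.16 to 1.65, Plxnd1 from 0.90 to 1.46 and Sema5a from 0.38 to 0.61. Unc5d ranged from -0.96 to -0.68, Robo1 from -0.81 to -0.34, Ephb4 from -0.70 to -0.48 and Epha6 from -2.54 to -1.62. Each such fit left 1 library in 1 group. These members were picked by a small p in the same libraries, so a kept direction adds no evidence.

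The 14 pairs of known ligand and receptor partners are given side by side, as log2 fold changes without a test. Sema5a and Plxnb3 had 0.49 and 1.45, Sema3e and Plxnd1 had 0.13 and 1.15, and Sema3a and Nrp1 had 0.64 and 0.91. Both partners also lay above 0 for Sema3f and Nrp2 (1.40 and 0.06), for Sema4c and Plxnb2 (0.53 and 0.11) and for Sema7a and Plxnc1 (0.29 and 0.15). Both partners were below 0 for Slit1 and Robo2 (-0.52 and -0.29), for Slit2 and Robo1 (-0.40 and -0.56), for Efnb2 and Ephb4 (-0.41 and -0.59), for Sema6a and Plxna4 (-0.06 and -0.37) and for Efna5 and Epha4 (-0.07 and -0.11). Signs differed for Sema4d and Plxnb1 (0.52 and -0.18), Sema6d and Plxna1 (0.33 and -0.36) and Ntn1 and Dcc (-0.61 and 0.11). The pairs were chosen with earlier results known. Sema3a, Sema3e, Sema3f, Sema6a, Sema7a, Efna5, Ntn1, Nrp2, Plxnb2 and Dcc each changed sign in a fit without 1 library. Whether such partners share a sign is therefore not settled.

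Members known from blood vessels lay on both sides of 0, while the 12 endothelial markers all lay above it. Of the 8 such members, Nrp1, Plxnd1 and Unc5b were higher at an unadjusted p under 0.05 (edgeR), and Ephb4 was lower. Over all genes 5.88% were higher and 2.41% lower at that p. The lists of members linked to a cell type are short and were drawn up with earlier results known. The endothelial markers had a median of 1.92 on the log2 scale, with the tight junction gene Cldn5 at 273 and 136 CPM in KO and 78.3 and 24.4 CPM in WT. The 8 vessel-linked guidance genes had a median of 0.81 and ran from -0.59 in Ephb4 to 1.42 in Unc5b. Of the 4 members linked to oligodendrocytes, Plxnb3 and Sema5a were higher at an unadjusted p under 0.05, Sema4d overlapped and Sema6a had -0.06. The 11 markers of the oligodendrocyte lineage summed to 3112 and 3289 CPM in KO and to 2865 and 2185 CPM in WT. All 11 lay above 0, with a median of 0.64. In 8 of them both KO libraries lay above both WT libraries, as in 21.2% of all genes, and 3 overlapped between groups. By edgeR 3 had an unadjusted p under 0.05 and 0 passed the threshold. Sox10 and Mbp, of smallest p, had 0.66 and 0.85. Olig1 and Olig2, the highest per kb, had 0.16 and 0.09 and overlapped. The 6 guidance genes linked to immune cells summed to 462 and 439 CPM in KO and to 458 and 410 CPM in WT, with a median log2 fold change of 0.13 and 0 at an unadjusted p under 0.05, beside microglia markers with a median of 1.89. The 11 markers of pericytes, smooth muscle and fibroblasts summed to 890 and 455 CPM in KO and to 371 and 400 CPM in WT, with Tagln at 0 in at least 1 library. Ependymal and choroid plexus markers were scarce, at 12.8 and 10.4 CPM in KO and 30.4 and 19.4 CPM in WT. The part of these cells in the guidance genes' values was not tested.

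**Figure D4:**
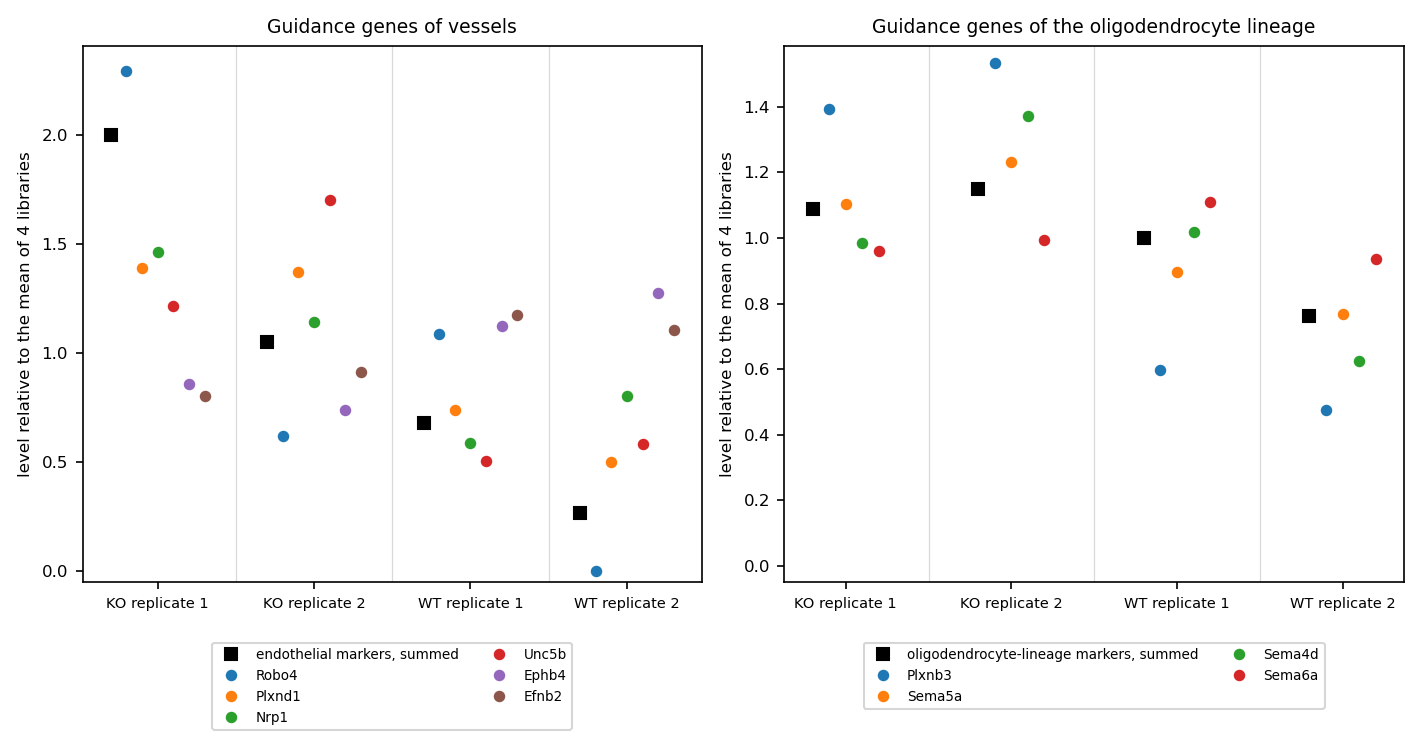
Level in each library relative to the mean of the 4 libraries. Left, guidance genes of vessels beside the summed 12 endothelial markers, with the vessel-linked Sema3g and Efna1 not drawn. Right, guidance genes of the oligodendrocyte lineage beside the summed 11 markers of that lineage. Squares are the marker sums. Robo4 and the endothelial sum are both highest in KO replicate 1 and lowest in WT replicate 2, while Ephb4 and Efnb2 are lowest in the KO libraries.

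Of the 12 neuron markers 4 were lower and 1 was higher at an unadjusted p under 0.05, with a median of -0.18, where 2.41% of all genes were lower and 5.88% higher. Tubb3 had 244 and 216 CPM in KO and 339 and 358 CPM in WT, a log2 fold change of -0.60. The higher one was the synaptic gene Snap25, with 167 and 172 CPM in KO and 99.1 and 139 CPM in WT (0.51 on the log2 scale). The part of neurons in the values of Unc5d, Robo1, Slit1 and Epha6 was not tested.

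In the wider pathway 0 genes passed over all genes by edgeR, and DESeq2 called 3, among them Flrt2 and Adam10, where it called 2.14% of all genes. Of 18 co-receptors and other guidance cues, 1 was higher and 1 was lower at an unadjusted p of less than 0.05, and the median log2 fold change was -0.02. Flrt2, a repellent ligand of Unc5d, had 32.4 and 33.7 CPM in KO and 82.8 and 61.4 CPM in WT (log2 fold change -1.13 ± 0.22, adjusted p = 0.27), and the adhesion receptor Dscam had 21.9 and 35.4 CPM in KO and 15.4 and 14.1 CPM in WT (0.96 ± 0.32, adjusted p = 0.497). Flrt2 and Unc5d were thus both lower in both KO libraries. Of 60 cytoplasmic effectors 4 were higher and 2 lower at that p, where 5.88% of all genes were higher and 2.41% lower, with a median of -0.01, and the actin-severing factor Cfl1 and the GTPase Cdc42 had log2 fold changes of 0.06 and -0.08. Sh2d3c, an adaptor of Eph receptors and immune cells, had 49.0 and 53.0 CPM in KO and 28.8 and 18.1 CPM in WT (1.12 ± 0.29, adjusted p = 0.39). Of 8 proteases and proteoglycans that act on guidance cues, Adam10, which sheds ephrins, had 147 and 138 CPM in KO and 94.8 and 67.8 CPM in WT (0.81 ± 0.20, adjusted p = 0.372), and the other 7 had an unadjusted p over 0.05.

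Several members are neighbours on the genome and their log2 fold changes differed. Efna1, Efna3 and Efna4 lie in a row on the minus strand of chromosome 3, with gaps of 32.8 and 10.4 kb, and had log2 fold changes of 0.72, -0.20 and 0.00. Sema3b and Sema3f lie 72.3 kb apart on chromosome 9, with -0.66 and 1.40, and Ephb2 and Epha8 lie 93.4 kb apart on chromosome 4, with 0.31 and 0.96. By the authors' protein domain column, all 20 semaphorins carry the Sema domain as their leading domain and all 9 plexins the plexin cytoplasmic domain, while 13 of the 14 Eph receptors are listed by their tyrosine kinase domain and 1 by its ligand-binding domain.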

How the data were processed

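RNA from astrocytes of the cerebral cortex was measured in 4 libraries, 2 labelled KO and 2 labelled WT. The authors deposited 4 tables, each with raw counts per gene for 1 KO and 1 WT library, per the file headers. A second column holds a normalized signal, deposited by the authors as the count scaled by 1 constant per library with 0 replaced by 0.5. The authors' deposited log2 value, fold or ratio and p-value columns compare 2 single libraries. Bowtie2 2.2.3, TopHat2 2.0.12, HTSeq 0.6.0 and the build mm9 are named by the submitters' processing notes, with no roles. Yet 90.6% of the gene positions equal GENCODE M21 on GRCm38, including 60 of the 68 members, so coordinates are given on GRCm38. No source used here says if counting used strand.

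The tables were joined by gene. A gene of a pair with a 0 was listed where the other library had at least 5 counts, and a count missing from every table was set to 0; it can be at most 4. No member had a missing count. The libraries of both groups were fitted together with edgeR 4.0.16 in R 4.3.3 (TMM, filterByExpr with a minimum count of 10, quasi-likelihood test, Benjamini-Hochberg over 17696 genes, threshold 0.05). There were 2 residual degrees of freedom, and edgeR's common dispersion came to 0.204. CPM uses TMM-scaled library sizes, and CPM per kb divides by the merged exon length in GENCODE M21. The standard error of a log2 fold change was derived from the F statistic. The fits were tested on simulated data with 100 genes changed 2-fold and 100 changed 4-fold. There edgeR found 15 and 68 of them at an adjusted p under 0.05, with 20 false calls. DESeq2 found 31 and 83 with 79 false calls, and limma-voom found 18 and 64 with 8. A gene that was not called is therefore not shown to be unchanged, and a call by any of these tools may be false. The changed genes were drawn only from genes above a minimum mean count, so recovery among members of few counts was not measured. DESeq2 1.42.0 and limma-voom (limma 3.58.1) were alternatives.

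The members, gene lists, ligand and receptor pairs and motifs were chosen with earlier results of these data known. Values in every library are given for members past the threshold and, in each role, for the 2 highest per kb and the 2 of smallest p, and for members with 1 library at least 3 times above, or at least 3 times below, every other at a mean of at least 1 CPM, 33 members in all. Other members given by library, such as Slit3, Sema3a and Plxna2, were chosen after their values were seen. The alternatives were DESeq2, limma-voom, RLE scaling, no count filter, a looser threshold of 0.1, a replicate block, leaving out each library, and, added after the data were seen, missing counts set to 4.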

Additional observations from a re-analysis of the deposited data

How the results depend on the processing

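By edgeR 0 members were called under RLE scaling, with no count filter, with the replicate block, with missing counts set to 4, at an adjusted p under 0.1, and without any 1 library, and limma-voom called 0. DESeq2 called 2. The count of all genes called higher and lower was 3 and 0 by edgeR. It was 315 and 63 by DESeq2, 25 and 3 by limma-voom, 52 and 4 with no count filter, and 14 and 1 at an adjusted p under 0.1, and without 1 library it ran from 0 to 41 higher and from 0 to 1 lower. With the replicate block 4 genes were called higher, and 4 and 3 members passed an unadjusted p of 0.05 in the higher and lower direction. The labels do not say that equal replicate numbers mark a shared litter or day, and the deviations of same-numbered libraries correlated at 0.0447, so the numbers are not taken as pairs. Without 1 library, 3 to 9 members were higher and 1 to 6 lower at an unadjusted p under 0.05. The count of higher members was 9 without WT replicate 1 and 3 without either KO library, and leaving out KO replicate 1 left 1 lower member, KO replicate 2 left 2. The median of the members stayed between -0.10 and 0.09 in these fits.

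Of 330 single-gene values under these alternatives 309 kept their direction and call, 2 gained a call and 19 changed sign. Of 100 medians of the roles under the same alternatives 14 moved, those of the netrins and the class 3 semaphorins among them. Epha2 had 1.82 by limma-voom and 1.67 with the replicate block, and -1.01 to 7.17 without 1 library. Sema3d had -0.00 under RLE scaling and with no filter, and -0.70 to 1.43 without 1 library. The other ranges without 1 library were -0.40 to 0.48 for Dcc, -0.12 to 0.48 for Ephb6, -0.18 to 0.35 for Nrp2, -1.07 to 0.08 for Ntn1, -6.89 to 5.94 for Ntn5, -0.04 to 0.29 for Plxnb2, -0.28 to 3.19 for Sema3f, -0.98 to 7.16 for Sema3g and -0.18 to 0.07 for Sema6a. Fitted values of genes with a library at 0 depend on the prior count and are no bound.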
